A study of Solanum lycopersicum with 4 samples.

Results

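A group of 93 genes gave a strong and nearly level signal on all 4 arrays of a tomato fruit study. They were taken from 627 genes that carry a symbol in the platform annotation. Each gene was represented by the probe set with its strongest mean signal. A member had a mean log2 value of at least 11 over the 4 arrays and a range, the highest array minus the lowest, of at most 0.4, which is a 1.32-fold span. Metallothionein, catalase, ascorbate peroxidase, superoxide dismutase, small heat shock, CCH and ERF/JERF genes were left out, 29 genes in all, of which 7 met both limits. The limits were applied to the values described here, so the small differences of the members follow from the choice and were not tested.

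Pericarp, the fleshy fruit wall, came from tomato cultivar Moneymaker of both genotypes. AtJUB1-OX fruits carried the Arabidopsis NAC transcription factor JUNGBRUNNEN1 fused to GFP under the 35S promoter, which is active in most plant tissues, and WT fruits were untransformed. Each genotype was sampled at mature green (MG), when the fruit is full-sized and not yet ripening, and 7 days after breaker, the first colour change (B+7). There was 1 array per condition and 1 transgenic line, so no spread between fruits or lines is known. The array reads the RNA of the whole tissue, so fewer cells of a type and less RNA per cell cannot be told apart. The stage labels were checked on known fruit genes. No other tissue was on the arrays, so the pericarp label was not checked. RIN, the MADS-box regulator of ripening, read 10.56 in AtJUB1-OX and 11.39 in WT at MG, and 13.52 in AtJUB1-OX and 13.56 in WT at B+7. CAB6A, a chlorophyll-binding protein of green tissue, read 11.08 in AtJUB1-OX and 11.71 in WT at MG, and 7.22 in AtJUB1-OX and 8.07 in WT at B+7. The 2 MG samples were not alike on other ripening genes. E8 read 6.95 in AtJUB1-OX and 12.23 in WT at MG, and 13.07 and 13.06 at B+7. PG2 went the other way, with 6.32 in AtJUB1-OX and 3.98 in WT at MG, and 14.23 and 14.16 at B+7. Whether both MG samples were at the same point of ripening was not tested, which limits every genotype difference at MG.

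Many abundant transcripts encode parts of machinery that every living cell uses, such as ribosomal proteins, translation factors, actin, folding chaperones and small GTPases. Some of these genes serve as references against which other transcripts are measured. Tomato ripening replaces photosynthetic plastids by chromoplasts, softens the cell wall and is driven by ethylene, and large parts of the transcriptome change along the way. The members are described by these roles, from translation to fruit regulators, and then set against relatives that did not stay level.

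Of the 598 genes left after the exclusions, 232 had a mean of at least 11, and 93 of these, 40.1%, had a range of at most 0.4. Among all 3019 probe sets with such a signal, named or not, 55.6% had a range this small, and among the bright probe sets without a name 57.3%. Over all 10101 probe sets the share was 33.5%. A small range was therefore common on these arrays. It was less frequent among the named genes than among unnamed probe sets above the same signal limit. Named genes count their brightest probe set only, after the exclusions, while unnamed probe sets were counted singly. The sets were not matched on signal, and the difference in share was not tested. Within the named genes the share also moved with signal. The share with a range of at most 0.4 was 28.2% (31 of 110 genes) at means from 11 to 12, 46.3% (37 of 80) from 12 to 13 and 59.5% (25 of 42) above 13. For all probe sets in the same bands the shares were 45.4%, 63.5% and 77.3%.

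**Figure D1:**
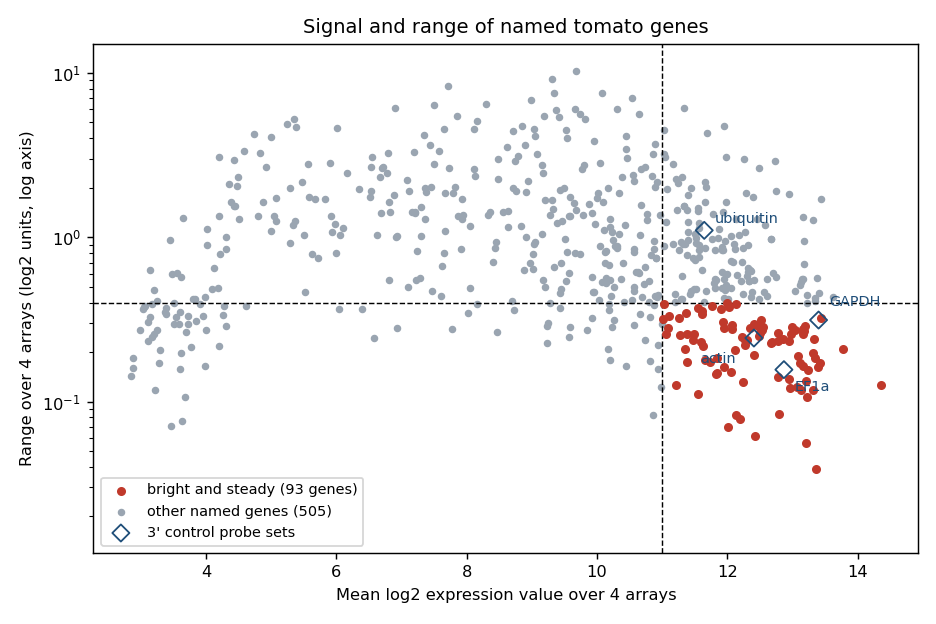
Range over the 4 arrays (log2 units, log axis) against mean log2 signal for the named genes. The 93 steady genes and the 3' control probe sets of GAPDH, EF1a, actin and ubiquitin are marked, and the other control probe sets are not shown. Dashed lines stand at the limits of 11 for the mean and 0.4 for the range, and the steady genes fill the corner of strong signal and small range.

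Hybridization spikes, labelled control transcripts of bacterial and phage origin, followed the same order. The bioB probe sets, with means from 9.88 to 10.83, had ranges from 0.31 to 0.48. The bioC probe sets (means from 11.22 to 11.98) had ranges from 0.17 to 0.27, and the bioD probe sets (12.61 to 13.69) from 0.09 to 0.14. The cre probe sets, at 13.91 to 14.36, varied by 0.04 to 0.10. Spikes thus spanned less at stronger signal, and the part of signal strength in the small ranges of the genes was not tested. Of the 21 bioB, bioC and bioD probe sets, 19 had a range of at most 0.4.

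**Figure D2:**
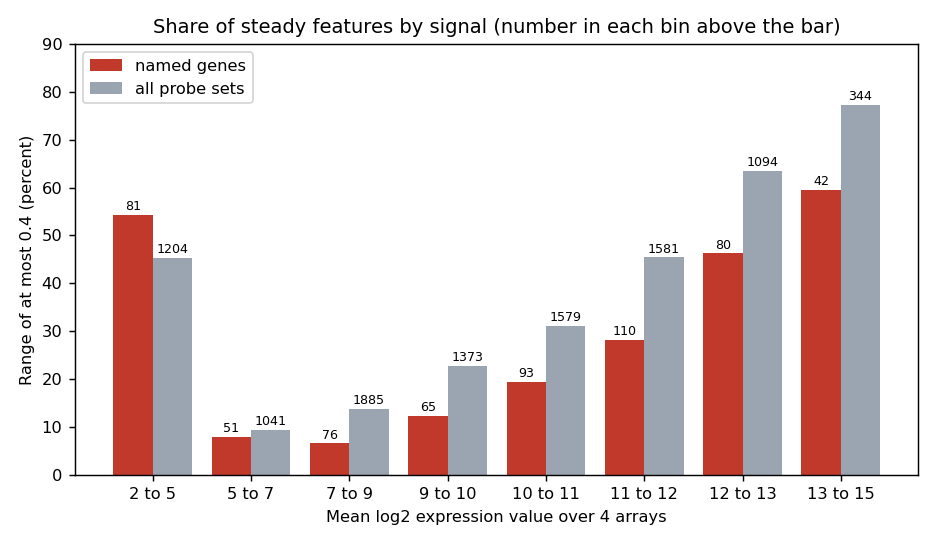
Share of named genes and of all probe sets with a range of at most 0.4, in percent, by band of mean log2 signal. In the bands from 11 upward the share climbs with signal in both sets, and the named genes lie below all probe sets in each of these bands.

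The member means ran from 11.02 to 14.36 with a median of 12.40. The median range was 0.24, a 1.18-fold span, and the smallest was 0.04. A range of at most 0.1 was seen for 7 members and of at most 0.2 for 36, while 16 members spanned more than 0.3. The highest of the 4 values fell on AtJUB1-OX at MG for 34 members, on WT at MG for 25, on AtJUB1-OX at B+7 for 14 and on WT at B+7 for 20. The lowest fell on those arrays for 28, 15, 25 and 25 members, in the same order.

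Within this narrow span the stages still separated some members. Both B+7 arrays lay below both MG arrays for 36 members and above both for 17, while 32.2% and 32% of the bright probe sets and 27.5% and 38.7% of all probe sets did so. Both AtJUB1-OX arrays lay above both WT arrays for 8 members and below both for 10, against 7.59% and 8.61% of the bright probe sets and 6.93% and 9.05% of all probe sets. The mean difference between stages was larger in size than that between genotypes for 63 of 93 members, with median sizes of 0.11 and 0.05. That is 67.7% of the members, beside 75.3% of all bright probe sets and 76.5% of all probe sets. Among the 139 bright named genes outside the range limit this held for 124, with median sizes of 0.53 and 0.16.

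The median member difference, AtJUB1-OX minus WT, was -0.01 at MG (43 positive, 50 negative) and 0.00 at B+7 (47 positive, 46 negative). B+7 minus MG had a median of -0.04 in AtJUB1-OX (39 positive, 54 negative) and -0.05 in WT (38 positive, 55 negative). Over all probe sets the medians were -0.05, 0.00, 0.09 and 0.04 in the same order. For the bright probe sets they were -0.015, -0.005, -0.002 and -0.007. The comparisons share arrays, so their values for one gene are not independent. The 21 spike probe sets had medians of 0.19 in AtJUB1-OX and 0.21 in WT for B+7 minus MG. Each array was then shifted so that the mean of these 21 probe sets was level. After this shift 57 of the 93 genes met both limits, 36 no longer did and 24 others joined. Before it, the spike medians differed with signal, so a constant shift per array did not level each spike type. B+7 minus MG was 0.29 in AtJUB1-OX and 0.29 in WT for bioB, below the signal of the members, and 0.16 in AtJUB1-OX and 0.19 in WT for bioC. For the brighter bioD it was 0.02 in AtJUB1-OX and 0.12 in WT, and for cre, which did not enter the shift, -0.03 in AtJUB1-OX and 0.02 in WT.

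No member could pass the 1.5-fold cut-off used in the study, since the range limit lies below it. Of the bright probe sets, 5.86% passed it for AtJUB1-OX against WT at MG and 2.78% at B+7, and 18.3% passed it for B+7 against MG in AtJUB1-OX and 15.6% in WT. Over all probe sets these shares were 13.4%, 9.66%, 36% and 28.1% in the same order. Nothing is read from the absence of members among them.

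**Figure D3:**
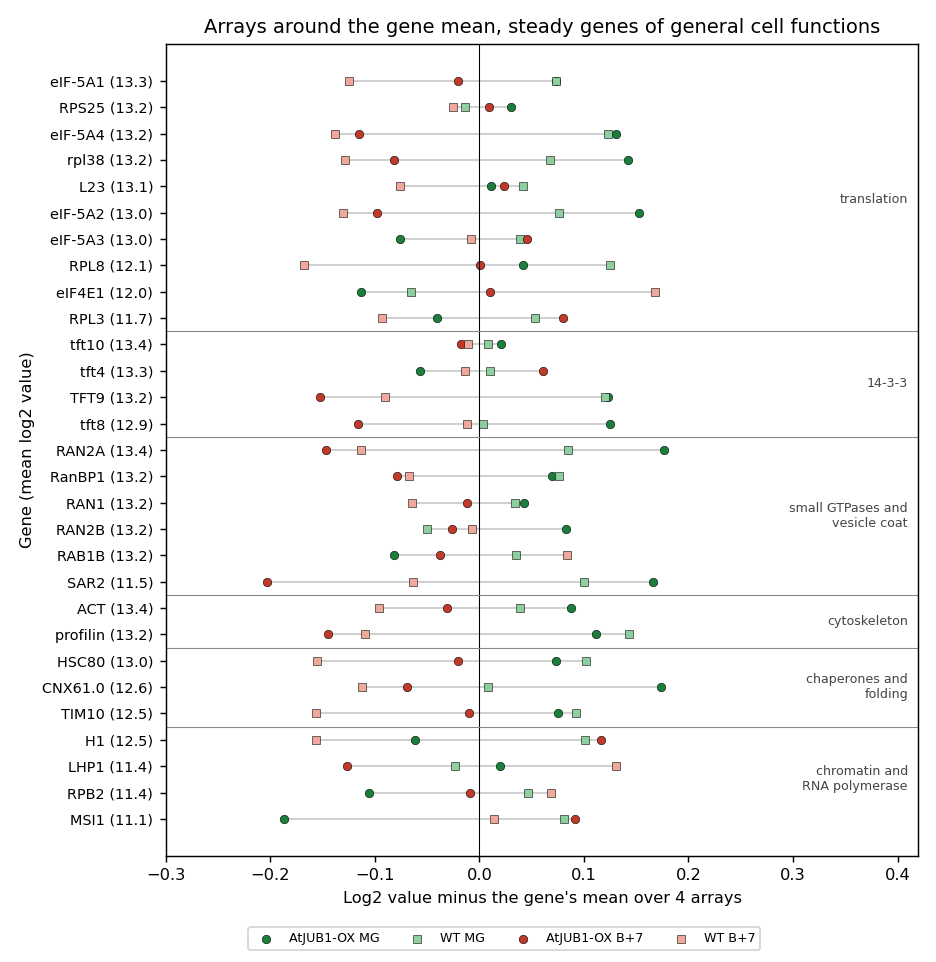
Log2 value of members on each array minus that member's mean over the 4 arrays, in rows grouped by role, with 1 marker type per condition, for the groups of general cell function. All markers lie within 0.4 of each other in a row, and in the 14-3-3, cytoskeleton and chaperone rows the B+7 markers tend to lie left of the MG markers.

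Translation gave 10 members. The 12 named genes listed here as ribosomal proteins and translation factors were all bright, and 10 of them were steady. Of all bright named genes 40.1% were steady, a share that stands beside the counts of the groups below too. RPS25, a protein of the small ribosomal subunit, read 13.23 in AtJUB1-OX and 13.19 in WT at MG, and 13.21 in AtJUB1-OX and 13.18 in WT at B+7. Its range of 0.06 was the smallest of the group, although both AtJUB1-OX arrays lay above both WT arrays by a few hundredths. The second probe set of RPS25 did not show that order at MG. The large-subunit proteins L23, RPL3, RPL8 and rpl38 had ranges of 0.12, 0.17, 0.29 and 0.27. INFA, an initiation factor of the bacterial type, missed the limit with a range of 0.71, as it read 11.68 in AtJUB1-OX and 11.98 in WT at MG, and 12.39 in AtJUB1-OX and 12.15 in WT at B+7. RPL37, another large-subunit protein, missed it with a range of 0.46. It read 12.58 in AtJUB1-OX and 12.78 in WT at MG, and 12.56 in AtJUB1-OX and 12.31 in WT at B+7.

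The 4 genes of eIF-5A, the translation factor that carries the modified amino acid hypusine, were all members. eIF-5A1 read 13.39 in both genotypes at MG, and 13.30 in AtJUB1-OX and 13.19 in WT at B+7. For eIF-5A4 the values were 13.31 in AtJUB1-OX and 13.30 in WT at MG, and 13.07 in AtJUB1-OX and 13.04 in WT at B+7. eIF-5A2 read 13.15 in AtJUB1-OX and 13.07 in WT at MG, and 12.90 in AtJUB1-OX and 12.87 in WT at B+7. These 3 were lower at B+7 on both arrays. eIF-5A3 did not share that order, with 12.88 in AtJUB1-OX and 13.00 in WT at MG, and 13.01 in AtJUB1-OX and 12.95 in WT at B+7. Closely related copies may share probe signal, which was not tested. DHS, deoxyhypusine synthase, which starts the modification of eIF-5A, lay just outside the signal limit with a mean of 10.98 and had a range of 0.12. The cap-binding factor eIF4E1 ran the other way from eIF-5A1, eIF-5A2 and eIF-5A4. It read 11.84 in AtJUB1-OX and 11.89 in WT at MG, and 11.97 in AtJUB1-OX and 12.12 in WT at B+7, so both B+7 arrays were higher. In the whole group 5 of 10 members had both B+7 arrays below both MG arrays and 1 had them above. Of the bright probe sets 32.2% lay below and 32% above, and of all probe sets 27.5% and 38.7%. The same shares apply to the groups that follow, and the order of stages in groups this small was not tested.

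The 14-3-3 proteins, which bind phosphorylated partners, gave both the smallest range of all members and relatives far outside the limit. tft10 read 13.39 in AtJUB1-OX and 13.37 in WT at MG, and 13.35 in both genotypes at B+7, a range of 0.04 or 1.03-fold. The members tft4, tft8 and TFT9 had ranges of 0.12, 0.24 and 0.28. In tft8, tft10 and TFT9 both B+7 arrays were below both MG arrays. TFT6 read 11.99 in AtJUB1-OX and 11.97 in WT at MG, and 10.76 in AtJUB1-OX and 10.89 in WT at B+7. TFT7 showed the reverse, with 11.12 in AtJUB1-OX and 10.79 in WT at MG, and 11.98 in AtJUB1-OX and 12.30 in WT at B+7. TFT3, with a mean of 9.33 below the signal limit, spanned 1.49 and was also lower at B+7. The 7 named genes of the family thus held 4 level ones at strong signal, and the other 3 differed between stages, TFT3 and TFT6 lower and TFT7 higher at B+7.

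Ran GTPases act in the transport of proteins and RNA across the nuclear envelope. RAN1, RAN2A, RAN2B and their binding protein RanBP1 were all members. RAN1 read 13.27 in AtJUB1-OX and 13.26 in WT at MG, and 13.22 in AtJUB1-OX and 13.16 in WT at B+7. RAN2A spanned more, with 13.62 in AtJUB1-OX and 13.53 in WT at MG, and 13.29 in AtJUB1-OX and 13.33 in WT at B+7. RanBP1 and RAN2B had ranges of 0.16 and 0.13. As with eIF-5A, near-identical copies may share signal. RAB1B, a GTPase of transport from the endoplasmic reticulum to the Golgi, read 13.08 in AtJUB1-OX and 13.20 in WT at MG, and 13.12 in AtJUB1-OX and 13.25 in WT at B+7. Here the WT array was higher at each stage. Its relatives Rab1A and Rab1C, at ranges of 0.69 and 0.42, were outside. SAR2, the GTPase that starts the coat of the same vesicles, was near the limit at 0.37 and was lower on both B+7 arrays. Of 12 named genes of small GTPases and vesicle coat, 11 were bright and 6 steady.

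Actin and profilin, the building block of actin filaments and a protein that binds it, were the members from the cytoskeleton. ACT read 13.44 in AtJUB1-OX and 13.39 in WT at MG, and 13.32 in AtJUB1-OX and 13.25 in WT at B+7. profilin read 13.31 in AtJUB1-OX and 13.34 in WT at MG, and 13.05 in AtJUB1-OX and 13.08 in WT at B+7. In both genes the B+7 arrays were the lower pair. TUB, a tubulin of the microtubules, was bright on average but far from level, with 12.43 in AtJUB1-OX and 12.19 in WT at MG, and 9.64 in AtJUB1-OX and 10.43 in WT at B+7. Its range of 2.79 contrasts with 0.18 for ACT.

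Among chaperones, HSC80, a member of the HSP90 family, read 13.04 in AtJUB1-OX and 13.07 in WT at MG, and 12.95 in AtJUB1-OX and 12.81 in WT at B+7. The endoplasmic reticulum chaperone CNX61.0 and the mitochondrial import chaperone TIM10 had ranges of 0.29 and 0.25. All 3 had both B+7 arrays below both MG arrays, as did 32.2% of the bright probe sets. Hsp90-1 was outside the limit, with 12.52 in AtJUB1-OX and 12.69 in WT at MG, and 12.05 in AtJUB1-OX and 12.12 in WT at B+7.

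For chromatin and RNA polymerase all 4 bright genes of 6 named ones were steady, and none of the 4 separated the stages. H1, a linker histone, read 12.46 in AtJUB1-OX and 12.63 in WT at MG, and 12.64 in AtJUB1-OX and 12.37 in WT at B+7. LHP1, a reader of Polycomb-marked chromatin, had 11.41 in AtJUB1-OX and 11.36 in WT at MG, and 11.26 in AtJUB1-OX and 11.52 in WT at B+7. The chromatin protein MSI1 and RPB2, the second-largest subunit of RNA polymerase II, had ranges of 0.28 and 0.17. RPB2 was lower on both AtJUB1-OX arrays than on both WT arrays.

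Central carbon metabolism held some of the most level genes. Of 22 named genes 13 were bright and 6 steady, with member ranges from 0.06 to 0.19. Of all bright named genes 40.1% were steady, and of all bright probe sets 55.6%. The median range over the 22 named genes was 0.64, so the group as a whole was not level. FDH, mitochondrial formate dehydrogenase, read 12.45 in AtJUB1-OX and 12.39 in WT at MG, and 12.44 in both genotypes at B+7. TAL, transaldolase of the pentose phosphate pathway, read 12.15 in AtJUB1-OX and 12.23 in WT at MG, and 12.21 in AtJUB1-OX and 12.20 in WT at B+7. Neither gene separated the stages, nor did the other 4 members of the group. ME1, an NADP-malic enzyme, had a range of 0.12 and sucrose phosphate synthase, SPS, of 0.13, while the fructokinase FRK1 had 0.15 and the mitochondrial malate dehydrogenase mMDH1 had 0.19. Relatives of the same enzymes lay outside: ME2 had a range of 0.63 and FRK2 of 0.54. The malate dehydrogenase genes gMDH and mdh spanned 0.98 and 2.34, and the acid invertase AI spanned 1.70.

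Phosphatases and kinases added PP2AC1 and PP2Ac2, catalytic subunits of protein phosphatase 2A. PP2AC1 read 12.17 in AtJUB1-OX and 12.11 in WT at MG, and 12.09 in AtJUB1-OX and 12.16 in WT at B+7. PP2Ac2 was less level, with 12.23 in AtJUB1-OX and 12.08 in WT at MG, and 11.95 in AtJUB1-OX and 12.04 in WT at B+7. The MAP kinases MPK2 and MAPK10 and the cyclin-dependent kinase cdc2A-2 had ranges of 0.13, 0.24 and 0.25.

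In protein turnover, LeMA-1, an ATPase subunit of the proteasome, and CUL4, the scaffold of a ubiquitin ligase, had ranges of 0.15 and 0.32. LAPA2, a leucine aminopeptidase, read 12.67 in AtJUB1-OX and 12.69 in WT at MG, and 12.82 in AtJUB1-OX and 12.91 in WT at B+7, with the B+7 pair higher. VPE5, a vacuolar processing enzyme, ran the other way, with 12.66 in AtJUB1-OX and 12.60 in WT at MG, and 12.39 in AtJUB1-OX and 12.43 in WT at B+7. MCA1, a metacaspase, was lower in AtJUB1-OX by 0.09 at MG and by 0.26 at B+7. The protease gene ide had a range of 0.19.

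At the membrane, LHA2, a proton pump of the plasma membrane, read 12.35 in AtJUB1-OX and 12.13 in WT at MG, and 12.31 in AtJUB1-OX and 12.29 in WT at B+7. Its relative LHA1 read 12.07 in AtJUB1-OX and 12.24 in WT at MG, and 11.25 in AtJUB1-OX and 11.86 in WT at B+7. NHX2, a cation/proton antiporter, had a range of 0.18 with the B+7 arrays higher. The remorin rem-1, a plasma membrane protein, spanned 0.26 against 0.91 for rem-2.

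Thiol enzymes are of interest because JUNGBRUNNEN1 is known in Arabidopsis for its link to hydrogen peroxide. TPx1, a thioredoxin peroxidase, which removes peroxide, read 13.49 in AtJUB1-OX and 13.40 in WT at MG, and 13.35 in AtJUB1-OX and 13.33 in WT at B+7. GPXle-2, a glutathione peroxidase, read 13.17 in both genotypes at MG, and 13.13 in AtJUB1-OX and 13.00 in WT at B+7. CITRX, a thioredoxin, read 10.97 in AtJUB1-OX and 11.13 in WT at MG, and 11.30 in AtJUB1-OX and 11.02 in WT at B+7. The group had 9 named genes, of which 7 were bright and 3 steady. The 4 bright ones outside the limit had ranges of 1.99 for GSH1, 1.02 for GPXle-1, 0.89 for DHAR1 and 0.45 for DHAR2.

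Several members are regulators or enzymes of the fruit itself. TAGL1, an AGAMOUS-like MADS-box factor needed for fruit expansion and ripening, read 12.76 in AtJUB1-OX and 12.84 in WT at MG, and 12.78 in AtJUB1-OX and 12.79 in WT at B+7, with both AtJUB1-OX arrays just below both WT arrays. Its range of 0.08 stands beside 3.00 for RIN and 1.83 for TDR4, the FRUITFULL homologue, which read 11.86 in AtJUB1-OX and 12.55 in WT at MG, and 13.67 in AtJUB1-OX and 13.69 in WT at B+7. AG1, the tomato AGAMOUS, had a range of 0.25 and was lower at B+7. MADS1, a further MADS-box gene, read 12.55 in AtJUB1-OX and 12.25 in WT at MG, and 12.30 in AtJUB1-OX and 12.52 in WT at B+7.

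The ethylene receptor ETR1 read 11.54 in AtJUB1-OX and 11.49 in WT at MG, and 11.55 in AtJUB1-OX and 11.60 in WT at B+7. The receptor ETR4 spanned 1.75, with 12.22 in AtJUB1-OX and 11.29 in WT at MG, and 13.03 in AtJUB1-OX and 13.04 in WT at B+7. EIL3, an EIN3-like factor that acts downstream of the receptors, was lower on both AtJUB1-OX arrays, with 11.72 against 12.08 in WT at MG, and 11.79 against 12.04 in WT at B+7. EIL1 and EIL4 had ranges of 0.51 and 0.48 and were outside. Of 13 named genes of ethylene signalling 5 were bright, and ETR1 and EIL3 were the steady ones.

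The strongest signal among the members came from 2A11, a small cysteine-rich fruit protein. It read 14.42 in AtJUB1-OX and 14.30 in WT at MG, and 14.40 in AtJUB1-OX and 14.31 in WT at B+7, so both AtJUB1-OX arrays were slightly above both WT arrays. PSBR, a small subunit of photosystem II, read 13.40 in AtJUB1-OX and 13.46 in WT at MG, and 13.22 in AtJUB1-OX and 13.25 in WT at B+7. Other proteins of the same complex spanned more, with 0.45 for PSBO, 0.97 for PSBP and 3.21 for PsbQ. PsbQ read 12.06 in AtJUB1-OX and 12.68 in WT at MG, and 9.47 in AtJUB1-OX and 9.89 in WT at B+7.

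GABA-TP1, a transaminase that breaks down the amino acid GABA, read 12.61 in AtJUB1-OX and 12.75 in WT at MG, and 12.87 in AtJUB1-OX and 12.86 in WT at B+7. GABA-TP2, of the same family, had the widest span of the relatives compared, 5.48, with 10.54 in AtJUB1-OX and 10.18 in WT at MG, and 5.06 in AtJUB1-OX and 5.62 in WT at B+7. CCD1B, a carotenoid cleavage dioxygenase, had a range of 0.31. Its relative CCD1A, with a mean of 9.28 below the signal limit, spanned 0.40, just over the range limit. Psy1, the phytoene synthase of ripening fruit and a different carotenoid enzyme, had 2.92. The beta-galactosidase TBG1 spanned 0.32, and TBG4 of the same family spanned 3.66, with 6.99 in AtJUB1-OX and 7.82 in WT at MG, and 10.64 in AtJUB1-OX and 10.14 in WT at B+7. IMP3, an inositol monophosphatase, and WRKYIId, a WRKY factor, had ranges of 0.23 and 0.38. These families were chosen after their values were seen, to show level and varying relatives side by side.

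**Figure D4:**
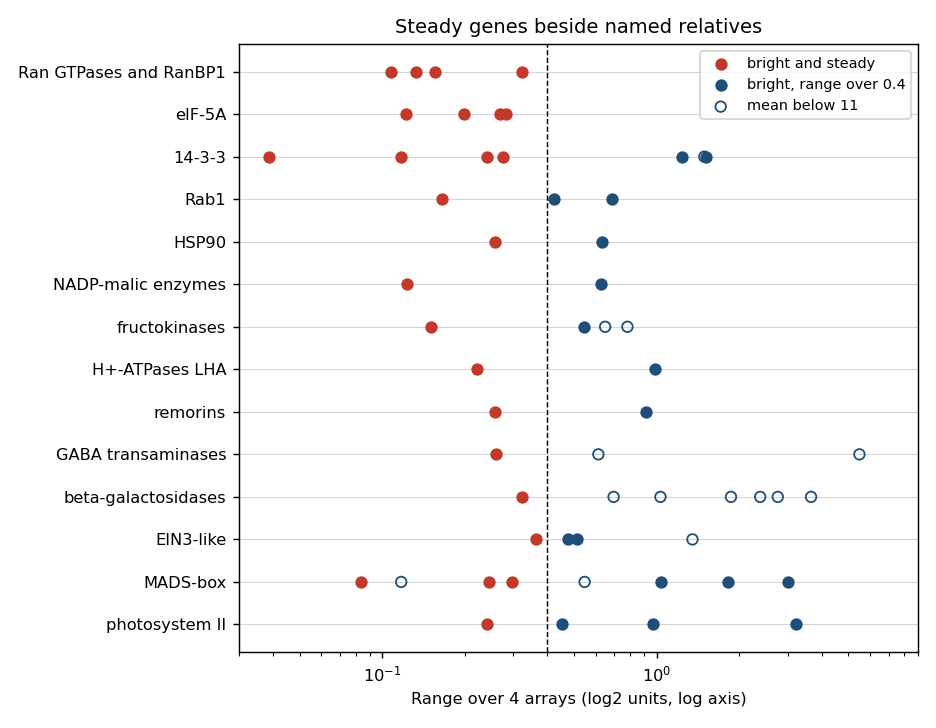
Range over the 4 arrays (log2 units, log axis) of steady genes and their named relatives, 1 row per family, with filled blue points for bright genes outside the range limit and open points for genes with a mean below 11. The dashed line is the limit of 0.4, which the eIF-5A and Ran families do not cross, while GABA transaminases reach 5.48.

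The 30 members outside these groups had ranges from 0.07 to 0.40. TCTP, the translationally controlled tumour protein homologue, read 13.90 in AtJUB1-OX and 13.83 in WT at MG, and 13.70 in AtJUB1-OX and 13.69 in WT at B+7. NDK, nucleoside diphosphate kinase, had 13.43 in AtJUB1-OX and 13.53 in WT at MG, and 13.39 in AtJUB1-OX and 13.36 in WT at B+7. Both were lower at B+7. DAD1, a subunit of the oligosaccharyltransferase that glycosylates proteins, spanned 0.14, and the glucosyltransferase twi1 spanned 0.19. PTPKIS1, with a range of 0.07, read 11.97 in AtJUB1-OX and 12.01 in WT at MG, and 12.04 in AtJUB1-OX and 12.03 in WT at B+7. ER66, a calmodulin-binding transcription factor, was 0.25 lower in AtJUB1-OX than in WT at B+7. ARF3, an auxin response factor, was lower in AtJUB1-OX by 0.23 at MG and by 0.26 at B+7. FTA, the alpha subunit of a protein farnesyltransferase, spanned 0.34 and was lower at B+7. MAF1, ArcA1 (a RACK1-type WD-repeat protein), CGI1, LTC, ats1, app2, DEM2, ASCL, DDTFR10, LAT61, t19-8, hqt, ACI36, GLUII, ACI29, ER21, THOX2, tst, CPA, PYD1A and SK make up the rest. In the 30 genes both B+7 arrays were below both MG arrays for 10 and above for 7. The shares over the bright probe sets were 32.2% and 32%, and over all probe sets 27.5% and 38.7%.

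The largest genotype differences among members were small by construction. At MG hqt, of chlorogenic acid synthesis, was 0.40 lower in AtJUB1-OX, EIL3 0.36 lower and CCD1B 0.27 lower, while MADS1, THOX2 and LAT61 were higher by 0.30, 0.29 and 0.27. At B+7, MCA1, LHP1 and ARF3 were each 0.26 lower in AtJUB1-OX, and ACI29, CITRX and H1 were higher by 0.38, 0.29 and 0.27. Between stages, SAR2, THOX2 and WRKYIId were the lowest at B+7 in AtJUB1-OX, with differences of -0.37, -0.36 and -0.36, and SK (shikimate kinase), CITRX and app2 the highest with 0.36, 0.33 and 0.31. In WT the lowest were ACI29, hqt and RPL8 with -0.35, -0.32 and -0.29, and the highest were LAT61, TBG1 and SK with 0.39, 0.32 and 0.30. SK was thus among the highest at B+7 in both genotypes, with 10.89 in AtJUB1-OX and 10.85 in WT at MG, and 11.24 in AtJUB1-OX and 11.15 in WT at B+7. With 1 array per condition these differences cannot be told apart from differences between arrays.

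**Figure D5:**
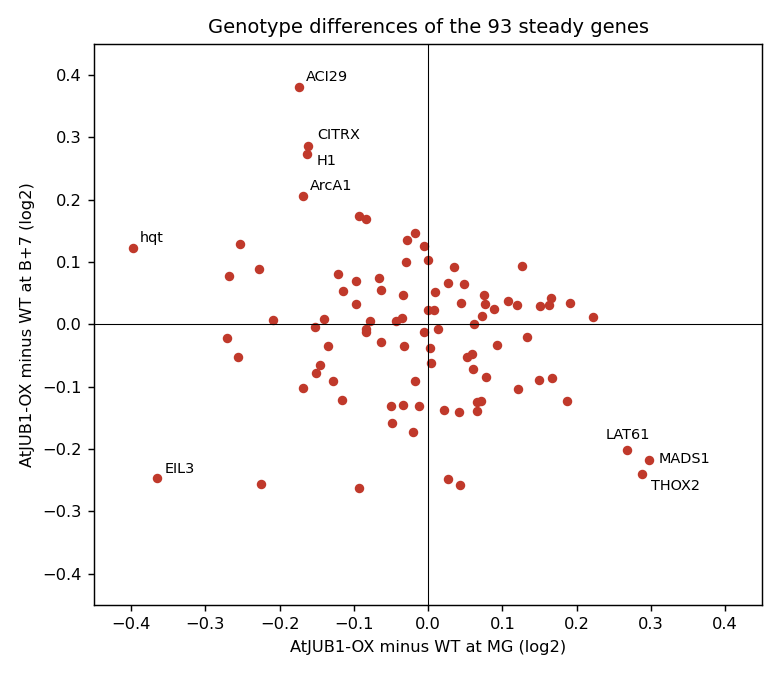
Difference AtJUB1-OX minus WT (log2) at MG (horizontal) and at B+7 (vertical), 1 point per steady gene. EIL3 is negative at both stages, MADS1, THOX2 and LAT61 lie at the lower right, and ACI29, CITRX, H1 and ArcA1 at the upper left.

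Other probe sets gave values that the choice of members had not used. For 9 members there were 10 further probe sets. Of these, 8 had a range of at most 0.4, beside 33.5% of all probe sets. All 7 with a mean of at least 11 were within the limit, beside 55.6% of the bright probe sets. The exceptions were the second probe set of MAF1, with a mean of 9.82 and a range of 0.44, and that of ARF3, with 10.02 and 0.67. In ARF3 the 2 probe sets also differed in sign at MG, where AtJUB1-OX minus WT was -0.23 for the brighter and 0.32 for the dimmer. For H1 they gave the same picture: the genotype difference was -0.16 at MG and 0.27 at B+7 on the brighter probe set, and -0.15 and 0.25 on the other. The second probe set of RPS25 spanned 0.16. It read 12.89 in AtJUB1-OX and 12.94 in WT at MG, the reverse of the order on the brighter one. The second probe set of mMDH1 spanned 0.11. Probe sets of one gene share the RNA and the array, and can overlap in sequence, so they check the probe and not the sample. The probe sets of TCTP, H1, mMDH1, PP2AC1 and RPL3 are marked by their IDs as matching more than 1 transcript.

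Genes commonly used as references fell on both sides of the limits. The control probe sets of the array, left out of the 93, gave a further reading. The 3' probe set of EF1a, an elongation factor of translation, had a range of 0.16 and that of actin 0.24. The other EF1a probe sets were dimmer and spanned more, with 0.25 for the middle one and 0.32, 0.52 and 0.84 for those of the 5' end, and the other actin probe sets spanned 0.35 and 0.28. Ubiquitin was not level: it read 11.33 in AtJUB1-OX and 11.06 in WT at MG, and 12.16 in AtJUB1-OX and 12.04 in WT at B+7. CYP1, a cyclophilin, read 11.06 in AtJUB1-OX and 11.52 in WT at MG, and 10.35 in AtJUB1-OX and 10.14 in WT at B+7. Among members, ACT, PP2AC1, PP2Ac2 and RPL8 belong to families used in this way. GAPDH, the glycolytic enzyme against which transcripts were scaled in the qRT-PCR of the study, read 13.59 in AtJUB1-OX and 13.45 in WT at MG, and 13.27 in AtJUB1-OX and 13.30 in WT at B+7 on its 3' probe set. Its range there was 0.31, its genotype difference 0.14 at MG and -0.03 at B+7, and both B+7 arrays were lower. The middle and 5' probe sets spanned 0.27 and 0.26 and were also lower at B+7. The primers that define this reference are shown in lower case, 5′ to 3′, since every qRT-PCR value of the study is relative to their product. The tables used here do not pair the primers with the array's GAPDH probe sets, so both may not read the same gene copy.
GAPDH forward: actggtgctgctaaggctgt
GAPDH reverse: acaaggtccacaaccgagac

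The limits cut through a continuous range of values. Just inside the range limit lay hqt at 0.40, LAT61 at 0.39, SK at 0.39, ACI29 at 0.38 and WRKYIId at 0.38. Just outside were ail at 0.40, Rab11a at 0.40, PP5 at 0.40, ADH2 at 0.41 and ChrC at 0.42. At the signal limit CUL4 (mean 11.02), SK (11.04) and PYD1A (11.06) were inside, and CRY2 (10.995), DHS (10.98) and ArcA2 (10.94) outside. A further 79 named genes with a mean below 11 had a range of at most 0.4. The weakest probe sets, with means from 2 to 5, had such a range in 45.3% of cases, about as often as those from 11 to 12.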

How the data were processed

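Pericarp RNA of 1 AtJUB1-OX line and WT at MG and B+7 was hybridized to 4 GeneChip Tomato Genome Arrays. The authors deposited log2 values per probe set, already background-corrected, normalized and summarized. The submitters' processing notes list GCRMA and RMA, and which step each served is not given in the sources used here. Of 10209 probe sets, 108 AFFX controls were set aside, and the 63 reporters stayed in the counts over all probe sets. Gene symbols were those of the 2007 platform table, where 909 probe sets have a single gene, 207 of them with a bare LOC number that was not taken as a symbol. Of the 93 members 89 matched the RefSeq table of SLM_r2.1. Signals of different probe sets do not rank transcripts exactly, since probes differ in response.

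Differences are of log2 values as deposited, AtJUB1-OX minus WT and B+7 minus MG. There are no replicates within a condition. A fit of genotype and stage without their interaction would leave 1 residual degree of freedom and was not run, since the members were chosen on the same values. Precision is limited by how few arrays there are. The members and lists were chosen with earlier results of these data known. Gene roles had been planned as keyword lists on gene names. The tables hold symbols only, so genes were grouped by hand from their symbols after values were seen, and the groups may miss genes. Protein and promoter features were not analysed here. Genes named are the brightest, the most level, those nearest the limits, the brightest of each group, those with the largest differences, those with several probe sets and common references, and others were named after their values were seen. Alternatives were centring, quantile normalization in limma, loess (span 0.3), a shift by the spikes, the mean of a gene's probe sets, LOC numbers as symbols, other limits and leaving out each array. Python 3.11.15 with pandas 2.3.3 and numpy 2.4.6, and R 4.3.3 with limma 3.58.1 were used.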

Additional observations from a re-analysis of the deposited data

Results flagged for a closer look

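Of the 93 members, 7 had genotype differences of opposite sign at the 2 stages, each at least 0.15 in size. That is 7.53% of the members, beside 11% of all bright probe sets and 18.8% of all probe sets. The size limit is arbitrary, and at 0.2 only MADS1, LAT61 and THOX2 meet it, 3.23% of the members beside 5.86% of the bright probe sets. The range limit caps these differences in the members, and with 1 array per condition the difference between stages was not tested. AtJUB1-OX was higher at MG and lower at B+7 for 3 genes. The MG difference minus the B+7 difference was 0.515 for MADS1, 0.47 for LAT61 and 0.527 for THOX2. AtJUB1-OX was lower at MG and higher at B+7 for the other 4. For these it was -0.375 for ArcA1, -0.436 for H1, -0.556 for ACI29 and -0.448 for CITRX. All these genes kept the range of 0.4 by which they were chosen, so each array differs from the next by less than 1.32-fold.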

How the results depend on the processing

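The member count of 93 was 96 after centring, 96 after quantile normalization, 97 after loess and 81 after the shift by the spikes. It was 62 to 124 over all alternatives, within 1.5 times the count. Of the 93 genes, 56 met both limits under all 4 scalings. The share of bright named genes that were steady, 40.1%, was 50.8% with a mean of at least 12, 33.2% with a range of at most 0.3, 52.6% with at most 0.5, and 45.3% to 51.9% when an array was left out, where a range over fewer arrays cannot be larger. The median difference AtJUB1-OX minus WT at B+7 was 0.0278 after centring and 0.0572 after the spike shift, and that of B+7 minus MG in WT was -0.15 after the spike shift. The median at MG was -0.01 and had the other sign, 0.02, after centring, so neither genotype median has a settled direction. No paired analysis was possible because each condition has 1 array and the labels carry no replicate numbers.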
